A study of Homo sapiens with 12 samples.

Results

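Paraspeckles are bodies in the cell nucleus that assemble on a long non-coding RNA, NEAT1, and the genes described here are that RNA, its chromosomal neighbour MALAT1 and 5 genes for proteins that bind NEAT1: SFPQ, NONO, PSPC1, RBM14 and HNRNPK. They are 7 of the 24180 gene symbols in the count tables, taken by symbol, and all 7 passed the filter on low counts that left 15407 genes for testing. They were chosen from these same libraries' expression values, with NEAT1 already known to be far below the controls, so the differences of the 7 genes between groups are a description and carry no p-value.

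The libraries come from 143B cells, an established human osteosarcoma line with a wild-type genotype in the labels, in 4 groups of 3: M-BSG-Hot, M-BSG, BSG and NC, the last being the control. The sample titles equate M-BSG with a material named 5-MNP-BSG and M-BSG-Hot with the same name and a plus sign, and the series title speaks of borosilicate bioactive glass and moderate magnetic hyperthermia. All 12 samples, NC included, carry one treatment text that names 5-MNP-BSG and a magnetic field, so material, field, dose and exposure time of each group are not given. Separate cultures are not stated for the libraries within a group, so the p-values below measure only a spread between libraries that may be technical.

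NEAT1 is transcribed as a short RNA with a poly(A) tail and as a long RNA that shares its 5' end and runs on past that site, and the long form is the scaffold of the paraspeckle. SFPQ, NONO and PSPC1 form one family of RNA- and DNA-binding proteins that pair with each other and coat NEAT1. HNRNPK favours the long form by holding back use of the early poly(A) site, and RBM14 bridges protein-coated NEAT1 into a full body. MALAT1 lies next to NEAT1 on the chromosome and gathers in nuclear speckles, where splicing factors are stored. The long NEAT1 form and MALAT1 both end in a stabilising triple helix, not in a tail.

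Total counts were between 34434993 and 38163152 per library. Values are CPM, that is counts relative to a library total adjusted by TMM for differences in composition, or FPKM, which also divides by gene length. In all 12 libraries 8 of the 9 measured mesenchymal and osteosarcoma markers reached at least 1 CPM, summing to 4735 to 5822 CPM. Epithelial markers summed to 14.8 to 23.2 CPM, with EPCAM alone at 1 CPM or more throughout, immune markers to 119.6 to 165 CPM, with CD68 alone at that level, and endothelial markers to 1.18 to 2.87 CPM, with none at that level. No marker gene was at 0 in all 12. Ribosomal protein genes took 7.33% to 11.0% of counts, and BSG 1, M-BSG 1 and M-BSG-Hot 3 had the highest share of their groups. NC 1 had the highest share of NC, at 8.14%, and was not left out with them. BSG 1 and M-BSG 1 were also the least like their replicates, and values without BSG 1, M-BSG 1 and M-BSG-Hot 3 are given where they matter. These 3 libraries were picked from these data, so nothing is read from larger counts of calls without them.

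NEAT1 was far lower in every library of the 3 other groups than in NC. It stood at 21.0, 25.2 and 19.8 CPM in the M-BSG-Hot libraries, at 29.5, 22.9 and 26.3 CPM in M-BSG, at 19.1, 20.3 and 25.7 CPM in BSG, and at 159, 164 and 162 CPM in NC. Every NC library lay far above all 9 others, while the 3 lower groups overlapped each other. The values rest on 683 to 1078 counts per library in the 3 lower groups and 5606 to 6314 counts in NC. Means were 22.0 ± 2.86 CPM in M-BSG-Hot, 26.2 ± 3.33 in M-BSG, 21.7 ± 3.49 in BSG and 162 ± 2.48 in NC (SD, n = 3 each).

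The remaining share of the NC level was 13.6% in M-BSG-Hot, 16.2% in M-BSG and 13.4% in BSG. On the log2 scale NEAT1 differed from NC by -2.88 (SE 0.130) in M-BSG-Hot, by -2.62 (SE 0.128) in M-BSG and by -2.90 (SE 0.130) in BSG. Counted from the lowest log2 fold change of the 15407 genes, this placed NEAT1 at rank 29 in M-BSG-Hot, 31 in M-BSG and 17 in BSG. Without those 3 libraries the differences were -2.81 in M-BSG-Hot, -2.72 in M-BSG and -2.82 in BSG. With a trend of log2 CPM along gene length removed from each library they were -2.70 in M-BSG-Hot, -2.48 in M-BSG and -2.53 in BSG.

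Among the 3 lower groups the order of NEAT1 means was M-BSG, then M-BSG-Hot, then BSG, and no neighbours in that order were separate. M-BSG-Hot against M-BSG gave -0.25 (SE 0.125) and M-BSG against BSG gave 0.27 (SE 0.125), with overlapping libraries in both. The FPKM of NEAT1 lay at percentiles 40.1 to 42.1 of the genes detected in a library in M-BSG-Hot, 41.7 to 44.1 in M-BSG, 40.7 to 43.9 in BSG and 67.5 to 68.1 in NC.

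The gene length behind the NEAT1 FPKM was 22743 bases, the length of the longest of its 8 transcripts in a GENCODE annotation, which range down to 512 bases. One count per symbol cannot separate the short from the long form, so the values describe the sum of both. The labels name an mRNA library kit and total RNA and do not say how transcripts without a tail were captured. In these bulk samples fewer cells with NEAT1 and less NEAT1 per cell cannot be told apart.

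**Figure D1:**
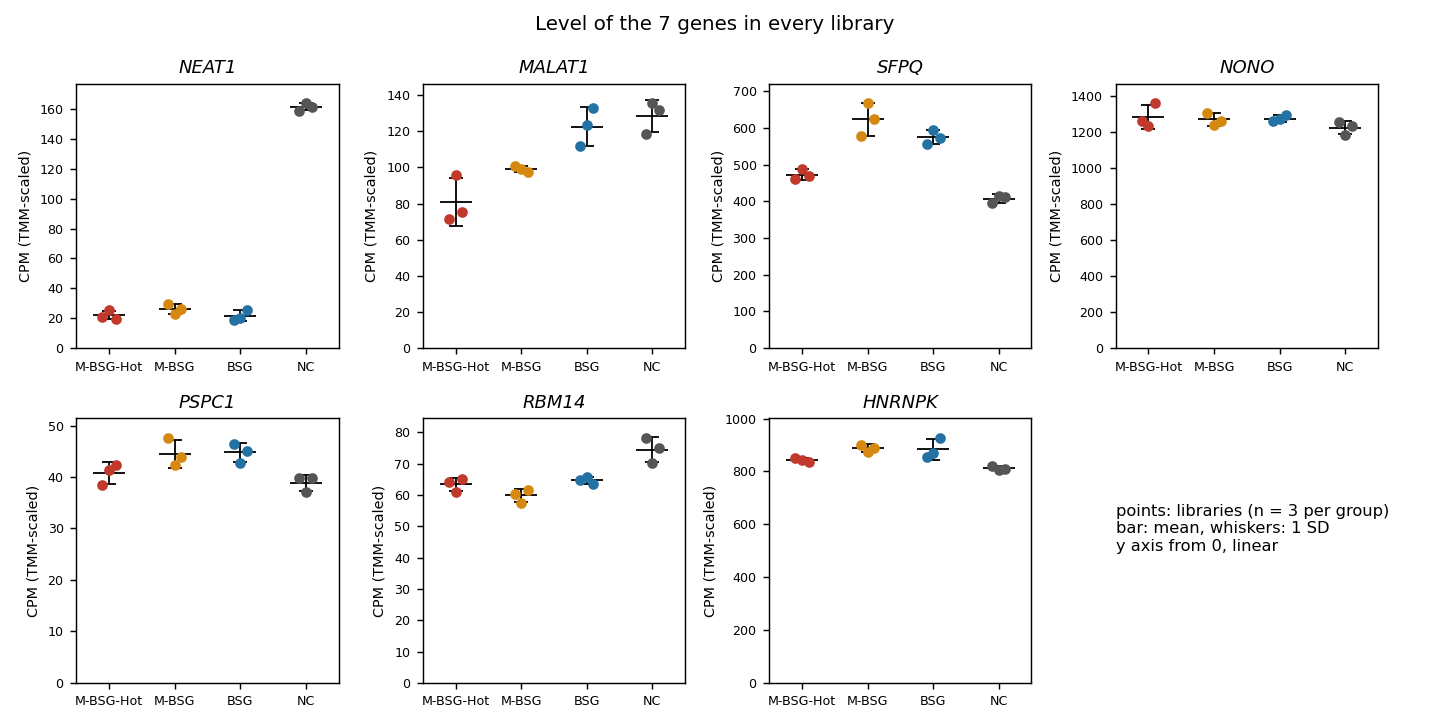
TMM-scaled CPM (y axes, linear, from 0) of the 7 genes in each library, with groups along the x axes, points for libraries, and bars and whiskers for the mean and 1 SD of 3. NEAT1 sits at 19.1 to 29.5 CPM in the 9 libraries of M-BSG-Hot, M-BSG and BSG and at 159 to 164 CPM in NC, while NONO, PSPC1 and HNRNPK lie close together in all groups.

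MALAT1 was lowest in M-BSG-Hot and stepped up through M-BSG to BSG and NC. Its values were 71.3, 95.7 and 75.0 CPM in M-BSG-Hot, 101, 99.3 and 97.5 CPM in M-BSG, 112, 123 and 133 CPM in BSG, and 118, 135 and 132 CPM in NC. All libraries of M-BSG-Hot were below all of M-BSG, and all of M-BSG below all of BSG and NC, whereas BSG and NC overlapped. The means were 80.7 ± 13.2 CPM in M-BSG-Hot, 99.1 ± 1.58 in M-BSG, 123 ± 10.6 in BSG and 128 ± 9.03 in NC (SD, n = 3 each).

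Against NC the log2 difference of MALAT1 was -0.67 (SE 0.106) in M-BSG-Hot, -0.37 (SE 0.106) in M-BSG and -0.07 (SE 0.105) in BSG. The BSG value turned to 0.11 with the gene length trend removed, and to 0.0028 without BSG 1. M-BSG-Hot differed from M-BSG by -0.30 (SE 0.106) and M-BSG from BSG by -0.31 (SE 0.106). MALAT1 overlaps the antisense gene TALAM1, which has no row of its own in the tables, and whether counting used strand is not given in the sources used here, so reads of the pair cannot be told apart.

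The balance of the neighbouring RNAs shifted with the fall of NEAT1. The ratio of NEAT1 to MALAT1 FPKM was 0.114, 0.102 and 0.102 in M-BSG-Hot, 0.113, 0.0888 and 0.104 in M-BSG, 0.0661, 0.0637 and 0.0746 in BSG, and 0.519, 0.467 and 0.474 in NC. At the lengths behind the FPKM NEAT1 stood below MALAT1 in all 12 libraries, and further below in the 9 outside NC. BSG had the lowest ratios, all below those of M-BSG-Hot and M-BSG, which overlapped. The ratio is built from the values that chose the genes and is a description like them.

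RefSeq promoter windows, of 250 bases before to 50 bases after an annotated start, were at hand for MALAT1, NONO, PSPC1, RBM14 and HNRNPK, in assembly GRCh38.p14. Those of MALAT1, with its 2 annotated starts, and of RBM14 are printed because these were the members besides NEAT1 with lower means than NC in all 3 other groups. Capitals mark matches, on either strand, to a TATA box, searched as TATAAA, or to a CCAAT box, whose matches here lie on the strand not shown.
MALAT1, first start, chr11:65497488-65497787, plus strand: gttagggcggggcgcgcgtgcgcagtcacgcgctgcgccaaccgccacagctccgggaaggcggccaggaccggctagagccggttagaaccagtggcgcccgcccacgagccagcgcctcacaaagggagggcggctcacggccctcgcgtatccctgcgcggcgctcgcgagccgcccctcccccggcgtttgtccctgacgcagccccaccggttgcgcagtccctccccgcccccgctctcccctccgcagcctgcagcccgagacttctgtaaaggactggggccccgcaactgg
MALAT1, second start, chr11:65498795-65499094, plus strand: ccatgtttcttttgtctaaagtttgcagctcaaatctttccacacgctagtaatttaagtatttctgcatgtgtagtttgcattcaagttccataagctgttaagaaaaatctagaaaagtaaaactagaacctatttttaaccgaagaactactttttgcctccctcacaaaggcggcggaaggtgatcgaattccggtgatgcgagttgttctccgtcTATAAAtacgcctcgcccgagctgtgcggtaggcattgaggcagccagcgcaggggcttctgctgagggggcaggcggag
RBM14, chr11:66616380-66616679, plus strand: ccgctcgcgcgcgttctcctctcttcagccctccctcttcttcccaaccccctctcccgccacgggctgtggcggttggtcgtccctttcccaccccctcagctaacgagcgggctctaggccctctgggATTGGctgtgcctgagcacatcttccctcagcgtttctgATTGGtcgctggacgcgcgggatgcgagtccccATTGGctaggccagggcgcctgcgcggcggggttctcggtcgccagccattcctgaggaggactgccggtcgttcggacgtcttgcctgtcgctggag
The second MALAT1 window held TATAAA 30 bases before the start, a motif present in 11.5% of 35116 promoter windows of this length. RBM14 held CCAAT 3 times, NONO 3 times and the first HNRNPK window 2 times, and 34.6% of all windows held it. TGANTCA (AP-1), TGACGTCA (CRE), GAANNTTC and TTCNNGAA (heat shock element) and CACGTG (E-box) were searched on both strands too. None of these 5 was found in the windows of the 5 genes, and they occurred in 7.71%, 1.85%, 6.77%, 7.74% and 7.26% of all windows. A match is a run of letters, not a measured site, and no match says only that these letters are not in these windows.

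SFPQ, which with NONO is needed to keep the long NEAT1 form stable, was higher in all 9 libraries outside NC. It stood at 460.3, 489 and 468 CPM in M-BSG-Hot, at 578, 667 and 624 CPM in M-BSG, at 557, 595 and 572 CPM in BSG, and at 394, 415 and 413 CPM in NC. The 3 groups were separate from NC, M-BSG-Hot was also below M-BSG and BSG, and M-BSG and BSG overlapped. Against NC the log2 difference was 0.21 (SE 0.071) in M-BSG-Hot, 0.61 (SE 0.071) in M-BSG and 0.50 (SE 0.071) in BSG, and M-BSG-Hot differed from M-BSG by -0.40 (SE 0.071). That last difference lay between -0.45 and -0.35 when 1 library was left out.

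NONO, the highest of the 7 by deposited FPKM, differed little between groups. It stood at 1257, 1233 and 1358 CPM in M-BSG-Hot, at 1305, 1239 and 1259 CPM in M-BSG, at 1257, 1271 and 1291 CPM in BSG, and at 1252, 1183 and 1234 CPM in NC. Only the BSG libraries were all above NC. Its log2 differences from NC were 0.07 in M-BSG-Hot, 0.05 in M-BSG and 0.06 in BSG, each with an SE of 0.067, and scaling by library size alone gave 0.00 in M-BSG-Hot, -0.01 in M-BSG and -0.02 in BSG.

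PSPC1, the third protein of this family, had slightly higher values in M-BSG and BSG. It stood at 38.4, 41.5 and 42.4 CPM in M-BSG-Hot, at 47.6, 42.3 and 43.8 CPM in M-BSG, at 46.5, 42.8 and 45.0 CPM in BSG, and at 39.9, 37.0 and 39.7 CPM in NC. M-BSG and BSG were separate from NC, with log2 differences of 0.20 (SE 0.077) in both, and M-BSG-Hot overlapped NC at 0.07 (SE 0.077). These small differences depended on the setting. With the gene length trend removed PSPC1 differed from NC by 0.42 in BSG and 0.26 in M-BSG, and by limma on log2(FPKM + 1) by 0.10 in BSG and 0.11 in M-BSG.

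Within the family, SFPQ made up more in M-BSG and BSG than in NC. The FPKM ratio of SFPQ to NONO was 0.114, 0.123 and 0.107 in M-BSG-Hot, 0.137, 0.167 and 0.154 in M-BSG, 0.137, 0.145 and 0.137 in BSG, and 0.0976, 0.109 and 0.104 in NC. All M-BSG and BSG libraries were above all of M-BSG-Hot and NC, which overlapped. The lengths behind the FPKM were 8946 bases for SFPQ and 9987 for PSPC1, beyond their longest GENCODE transcripts of 3747 and 2407 bases, so ratios and shares between these genes hold at those lengths only, while a ratio of 2 genes keeps its order across groups at any fixed length. Of the summed FPKM of SFPQ, NONO and PSPC1, SFPQ made up 10.2% ± 0.644 in M-BSG-Hot, 13.1% ± 1.12 in M-BSG, 12.2% ± 0.351 in BSG and 9.30% ± 0.462 in NC (SD, n = 3 each). PSPC1 was 0.00883 ± 0.000452 of NONO in M-BSG-Hot, 0.00976 ± 0.000331 in M-BSG, 0.00978 ± 0.000465 in BSG and 0.00883 ± 0.000128 in NC.

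**Figure D2:**
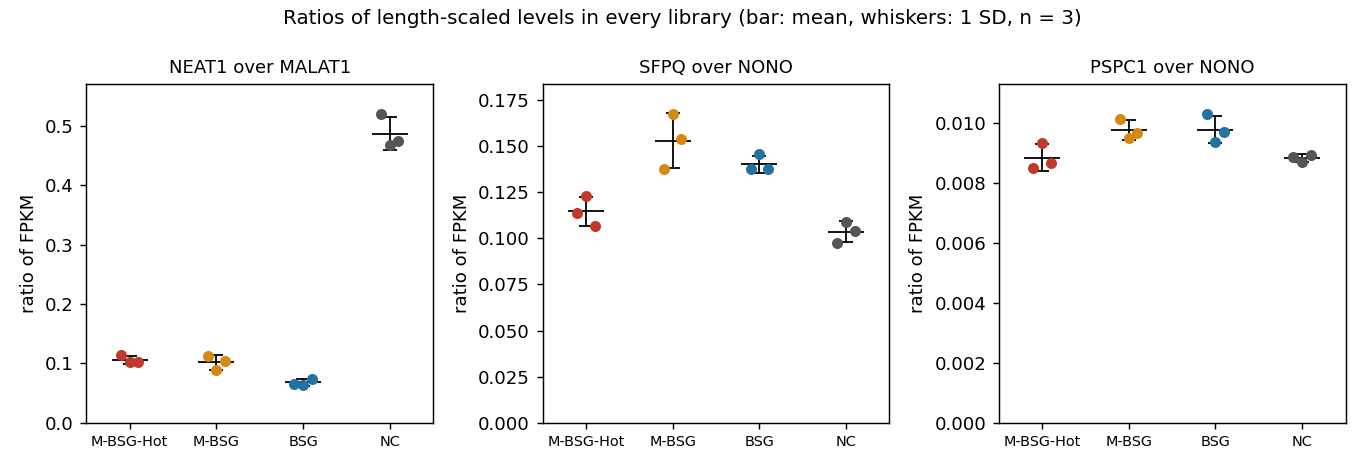
Ratios of FPKM (y axes, linear, from 0) in each library for NEAT1 over MALAT1, SFPQ over NONO and PSPC1 over NONO, by group, with bars and whiskers for the mean and 1 SD of 3. NEAT1 over MALAT1 is at most 0.114 outside NC and at least 0.467 in NC, and SFPQ over NONO is highest in M-BSG, at a mean of 0.153.

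RBM14, the bridging protein of the paraspeckle, was below NC throughout. It stood at 64.1, 61.0 and 65.1 CPM in M-BSG-Hot, at 60.4, 57.5 and 61.6 CPM in M-BSG, at 64.8, 65.8 and 63.7 CPM in BSG, and at 78.2, 70.2 and 75.1 CPM in NC. No library of the 3 groups reached the lowest NC library. The log2 differences were -0.23 (SE 0.069) in M-BSG-Hot, -0.32 (SE 0.069) in M-BSG and -0.20 (SE 0.069) in BSG, the last being -0.13 with the gene length trend removed. A read-through transcript joins RBM14 to the adjacent RBM4, and the tables have rows for RBM14 and RBM4 and none for the joined transcript, so shared reads may be counted in either.

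HNRNPK, which codes for an abundant RNA-binding protein, was lowest in NC by a small margin. It stood at 850.4, 842 and 835 CPM in M-BSG-Hot, at 902, 875 and 890 CPM in M-BSG, at 853, 870.2 and 927 CPM in BSG, and at 820, 807 and 809.6 CPM in NC. All 3 groups were separate from NC, yet the differences were small, at 0.05 in M-BSG-Hot, 0.13 in M-BSG and 0.12 in BSG on the log2 scale, each with an SE of 0.063, and the M-BSG-Hot value was -0.01 when scaled by library size alone. NONO and HNRNPK have processed copies elsewhere in the genome, and how the authors' counting treated shared reads is not given in the sources used here.

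By the deposited FPKM NONO was the highest of the 7 genes in every group, with a mean of 457 in M-BSG-Hot, 454 in M-BSG, 450.1 in BSG and 456 in NC, followed by HNRNPK at 273 to 289.6 and SFPQ at 47.2 to 69.3. RBM14 had 11.1 to 14.4, MALAT1 9.10 to 15.2 and PSPC1 4.03 to 4.44 FPKM. NEAT1 had 0.958 FPKM in M-BSG-Hot, 1.15 in M-BSG, 0.937 in BSG and 7.36 in NC. Of the 7 lengths behind these values that of NEAT1 alone equalled the length of a GENCODE transcript, and that of RBM14 was 5367 bases against 2828 for its longest, so the order of the genes rests on the lengths used.

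**Figure D3:**
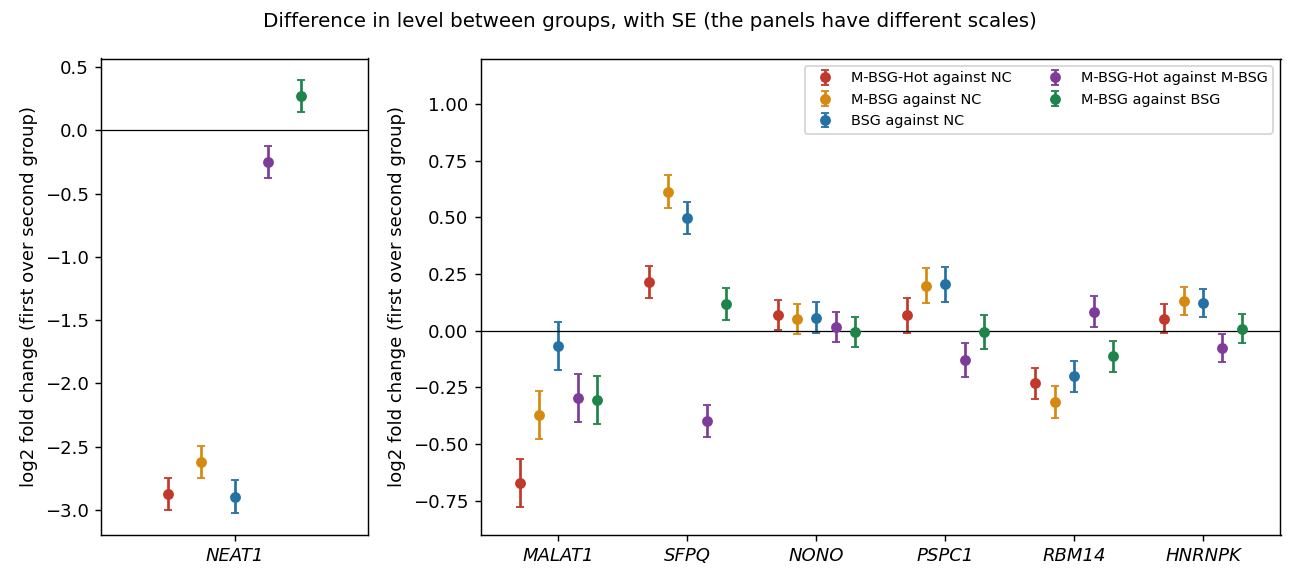
Log2 fold change of each of the 7 genes in the 5 comparisons (y axis, first group over second), with whiskers for the SE. NEAT1 is drawn on a scale of its own, at -2.88 in M-BSG-Hot, -2.62 in M-BSG and -2.90 in BSG against NC, and the other 6 genes lie between -0.67 and 0.61.

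Read against all genes, the 7 were counted as follows by edgeR's quasi-likelihood test at a Benjamini-Hochberg adjusted p under 0.05. In M-BSG-Hot against NC 0 were higher and 2 lower (NEAT1 and MALAT1), where 1.4% of all genes were higher and 3.51% lower, 4.91% in all. In M-BSG against NC 1 was higher (SFPQ) and 2 lower (NEAT1 and RBM14), where 3.22% of all genes were higher and 3.13% lower, 6.35% in all, and RBM14 no longer passed without NC 1, NC 3 or M-BSG 2, with log2 differences of -0.36 to -0.28 over all single omissions. BSG against NC had 1 higher (SFPQ) and 1 lower (NEAT1), where 5.5% of all genes were higher and 6.22% lower, 11.7% in all. Since these values chose the genes, nothing is read from the counts.

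The calls of the smaller differences changed with the setting. They too rest on the values that chose the genes, so nothing is read from them. In M-BSG against NC, MALAT1 also passed with library size alone, by DESeq2, with no count filter, in a fit of the 2 groups alone, by limma on either scale, with the replicate block and without the 3 libraries. In BSG DESeq2 called 3 higher (SFPQ, PSPC1 and HNRNPK) and 2 lower (NEAT1 and RBM14). RBM14 passed there with library size alone, by limma on either scale and without the 3 libraries too, and PSPC1 with the gene length trend removed. In M-BSG-Hot DESeq2, and the fit without the 3 libraries, called 1 higher (SFPQ) and 3 lower (NEAT1, MALAT1 and RBM14), RBM14 passed with library size alone and by limma, and SFPQ with the length trend removed.

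Libraries of the compared groups did not overlap for 5 of the 7 genes in M-BSG-Hot against NC, where 28.0% of all genes did not, for 6 in M-BSG, where 27.5% did not, and for 6 in BSG, where 38.7% did not. M-BSG-Hot against M-BSG gave 0 higher and 1 lower (SFPQ) where 0.694% of all genes passed, and 3 of 7 without overlap where 13.8% had none. SFPQ did not pass there without M-BSG 2, M-BSG 3, M-BSG-Hot 1 or M-BSG-Hot 3, nor in a fit of these 2 groups alone. In M-BSG against BSG none of the 7 passed, where 0.13% of all genes did, and 2 of 7 did not overlap, where 8.89% did not. The 3 comparisons with NC share the NC libraries.

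Over all genes 215 were higher and 541 lower in M-BSG-Hot than in NC, 496 were higher and 483 lower in M-BSG, and 847 higher and 959 lower in BSG. Scaled by library size alone, 149 were higher and 673 lower in M-BSG-Hot, 406 and 671 in M-BSG, and 574 and 1346 in BSG. The median log2 fold change over all genes was between -0.02 and 0.00 in the 5 comparisons.

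Beyond the 7 genes, 41 other proteins reported in paraspeckles were all measured, and a few RNA-binding proteins among them were higher in M-BSG and BSG. In M-BSG 5 were higher and 0 lower, where 6.35% of all genes passed, with a list median of 0.10 on the log2 scale. SRSF10, a splicing regulator, rose to 202 ± 16.2 CPM in M-BSG, against 148 ± 7.26 in NC (log2 0.45, SE 0.083, edgeR adjusted p = 0.00400). The other 4 were RBM3, a protein known for its rise in the cold, at 0.48, HNRNPA1 at 0.38, RBMX at 0.27 and HNRNPH1 at 0.26, the last named after its value was seen. Those 4 calls were each lost without 1 library or another, with adjusted p up to 0.123 for RBM3 (without NC 1, NC 2, NC 3, M-BSG 1 or M-BSG 3), up to 0.128 for HNRNPA1 (the same 5 libraries), up to 0.110 for RBMX (NC 1, NC 2, NC 3 or M-BSG 3) and up to 0.161 for HNRNPH1 (each of the 6). With library size alone RBMX and HNRNPH1 did not pass either (0.0516 and 0.109), nor with no count filter (0.0654 and 0.0921). By limma HNRNPH1 passed on neither FPKM scale (0.0800 and 0.0908), and HNRNPA1 did not pass on log2(FPKM + 0.1) (0.0505). Without the 3 libraries of high ribosomal protein share 10 were higher and 1 lower.

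In BSG 7 of the 41 were higher and 2 lower, where 11.7% of all genes passed, with a median of 0.05. There were 11 higher and 3 lower without the 3 libraries, 12 higher and 3 lower by DESeq2, and 3 higher and 3 lower with library size alone. HNRNPH1, RBM7, RBMX and SRSF10, named after their values were seen, did not pass with library size alone (adjusted p of 0.0788, 0.146, 0.110 and 0.113). None of them passed by limma on either FPKM scale (adjusted p of 0.0636 to 0.132). With no count filter HNRNPH1, RBM7 and RBMX did not pass edgeR's test (0.0505, 0.126 and 0.104). HNRNPH1 also lost its call without NC 1, NC 2, NC 3 or BSG 3 (0.0558 to 0.0982), RBM7 whichever of the 6 libraries was left out (0.0607 to 0.163), RBMX without NC 1, NC 2, NC 3, BSG 1 or BSG 3 (0.0695 to 0.140) and SRSF10 without NC 1, NC 2, NC 3, BSG 2 or BSG 3 (0.0549 to 0.0990). HNRNPA1, an abundant splicing repressor, rose to 2145 ± 155 CPM in BSG, against 1576 ± 22.7 in NC (log2 0.45, SE 0.098, edgeR adjusted p = 0.0100). RBM3 rose by 0.53, and DLX3, a homeobox factor, by 1.90 at low levels, with 1.46 CPM in BSG and 0.389 in NC. PCED1A and SS18L1 fell by 0.60 and 0.46. RBM3 lost its call without BSG 3 (adjusted p = 0.0502), NC 2 (0.0628) or NC 3 (0.0619), PCED1A without BSG 3 (0.0508) and SS18L1, named after its value was seen, without NC 2 (0.0600), NC 3 (0.0549) or BSG 1 (0.0562).

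In M-BSG-Hot 0 of the 41 were higher and 2 lower against NC, a share near the 4.91% of all genes, with a median of 0.04, while 8 had an unadjusted p under 0.05 and DESeq2 called 1 higher and 2 lower. SS18L1 fell to 29.6 ± 3.94 CPM in M-BSG-Hot, against 43.3 ± 0.442 in NC (log2 -0.55, SE 0.109, edgeR adjusted p = 0.00884). PCED1A fell by 0.57, a call lost without NC 1, NC 2, NC 3, M-BSG-Hot 1 or M-BSG-Hot 2 (adjusted p of 0.0509 to 0.0916). SRSF10 fell in M-BSG-Hot against M-BSG, the 1 call of 41 there, to 148 ± 7.97 CPM in M-BSG-Hot, against 202 ± 16.2 in M-BSG (log2 -0.45, edgeR adjusted p = 0.0287). It was lost without M-BSG 2, M-BSG 3, M-BSG-Hot 1 or M-BSG-Hot 3 (0.0979 to 0.172), in a fit of these 2 groups alone (0.117), with library size alone (0.0518) and by limma on either scale (0.0573 and 0.0588).

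Among 19 tested genes of RNase P, which cuts the 3' ends of the long NEAT1 form and MALAT1, and of 3' end formation, PCF11 was the one called by edgeR. PCF11, a cleavage and transcription termination factor, stood at 57.8, 68.8 and 58.8 CPM in M-BSG-Hot, at 87.9, 117 and 120.2 CPM in M-BSG, at 72.3, 108 and 98.03 CPM in BSG, and at 45.3, 49.8 and 50.4 CPM in NC. Every library of the 3 groups was above NC. It rose by 1.16 in M-BSG (SE 0.146, edgeR adjusted p = 0.000207) and by 0.94 in BSG (SE 0.145, adjusted p = 0.000878), and was the 1 gene called of 19 in each, where 6.35% of all genes passed in M-BSG and 11.7% in BSG. In BSG 8 of the 19 had an unadjusted p under 0.05, DESeq2 called 4, all higher, and 2 passed without the 3 libraries. In M-BSG-Hot 0 of 19 passed against NC, with 2 at an unadjusted p under 0.05 and 1 called by DESeq2. PCF11 was lower in M-BSG-Hot than in M-BSG by 0.81 (edgeR adjusted p = 0.0222), a call lost without M-BSG 2, M-BSG 3, M-BSG-Hot 1 or M-BSG-Hot 3 (0.0794 to 0.156), in a fit of these 2 groups alone (0.0627) and by limma on either scale (0.0573 and 0.0547). The medians of the list were 0.05 in M-BSG-Hot, 0.06 in M-BSG and 0.14 in BSG against NC.

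The nuclear RNA exosome degrades nuclear RNA with the help of adaptors, and of 23 such genes 0 were higher and 1 lower in M-BSG-Hot, none passed in M-BSG, and 2 were higher and 1 lower in BSG, all set against NC. These counts are near the share of all genes that passed, 4.91% in M-BSG-Hot and 11.7% in BSG, and in BSG DESeq2 called 4 higher and 1 lower. ZFC3H1, which links polyadenylated nuclear RNA to the exosome, stood at 30.9, 33.5 and 25.0 CPM in M-BSG-Hot, at 30.6, 42.7 and 41.8 CPM in M-BSG, at 23.9, 33.2 and 32.5 CPM in BSG, and at 45.9, 53.6 and 48.8 CPM in NC. All 9 libraries outside NC were below NC. It fell by 0.73 both in M-BSG-Hot (edgeR adjusted p = 0.0121) and in BSG (adjusted p = 0.00700), and the M-BSG-Hot call was lost without NC 2 (0.0664) or M-BSG-Hot 3 (0.0641). EXOSC9, a core subunit, and SRRT, a cap-linked adaptor, rose by 0.38 and 0.30 in BSG. EXOSC9 lost its call without NC 1, NC 2, NC 3, BSG 1 or BSG 3 (0.0616 to 0.137), and SRRT without NC 2 (0.134), NC 3 (0.118) or BSG 1 (0.0905), and with library size alone neither passed (0.0643 and 0.0641). By limma EXOSC9 passed on neither FPKM scale (0.0606 and 0.0610), and SRRT did not pass on log2(FPKM + 0.1) (0.0503). In M-BSG 5 of the 23 had an unadjusted p under 0.05 and DESeq2 called 1.

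Genes of the nuclear speckle, the body that MALAT1 enters, were called in both directions. Of 26 tested 1 was higher and 4 lower in M-BSG-Hot, 3 were higher and 0 lower in M-BSG, and 3 were higher and 1 lower in BSG against NC, where 4.91% of all genes passed in M-BSG-Hot, 6.35% in M-BSG and 11.7% in BSG. The medians were -0.01 in M-BSG-Hot, 0.11 in M-BSG and -0.02 in BSG. Without the 3 libraries the M-BSG count was 7 higher and 1 lower. SRSF6, a splicing factor, stood at 264, 289 and 302 CPM in M-BSG-Hot, at 397, 387 and 414 CPM in M-BSG, at 343, 361 and 373 CPM in BSG, and at 229, 221 and 222 CPM in NC. The 4 groups did not overlap, with M-BSG highest and NC lowest. It rose by 0.35 in M-BSG-Hot (edgeR adjusted p = 0.0101), by 0.84 in M-BSG (adjusted p = 7.38e-06) and by 0.68 in BSG (adjusted p = 2.73e-05), and the M-BSG-Hot call was lost without NC 2 (0.0603) or NC 3 (0.0571).

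SRSF3 and SRSF2, splicing factors of the same family, rose by 0.61 and 0.33 in M-BSG and by 0.69 and 0.30 in BSG, where the SRSF2 call was lost without NC 2 (adjusted p = 0.0522). SRRM1, a splicing coactivator, fell by 0.38 in M-BSG-Hot and by 0.37 in BSG. Its calls were lost without NC 1, NC 2, NC 3, M-BSG-Hot 1 or M-BSG-Hot 3 in M-BSG-Hot (0.0596 to 0.0944), and without NC 2, NC 3 or BSG 1 in BSG (0.0527 to 0.0554). CLK1, a kinase that phosphorylates splicing factors of this family, fell to 53.8 ± 6.90 CPM in M-BSG-Hot, against 82.0 ± 1.80 in NC (log2 -0.61, SE 0.094, edgeR adjusted p = 0.00155). LUC7L3 fell by 0.45, a call lost without NC 2 (0.0571) or M-BSG-Hot 3 (0.0543), and PNN, named after its value was seen, by 0.26, a call lost whichever of the 6 libraries was left out (0.0557 to 0.135).

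In M-BSG-Hot against M-BSG 0 of the 26 speckle genes were higher and 5 lower, where 0.597% of all genes were lower. LUC7L3, CLK1, SRSF6 and PNN differed by -0.59, -0.56, -0.49 and -0.45 in M-BSG-Hot against M-BSG (edgeR adjusted p of 0.00831, 0.0147, 0.00669 and 0.00511), and SRSF5, named after its value was seen, by -0.56. The list median was -0.14. PNN was called in all single omissions, LUC7L3 and SRSF6 lost their calls without M-BSG 3 (0.0625 and 0.0553), CLK1 without M-BSG 3 (0.0989) or M-BSG-Hot 1 (0.0580), and SRSF5 without M-BSG 1, M-BSG 3, M-BSG-Hot 1 or M-BSG-Hot 2 (0.0510 to 0.156). None of the 5 passed in a fit of the 2 groups alone (0.0627 to 0.157).

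**Figure D4:**
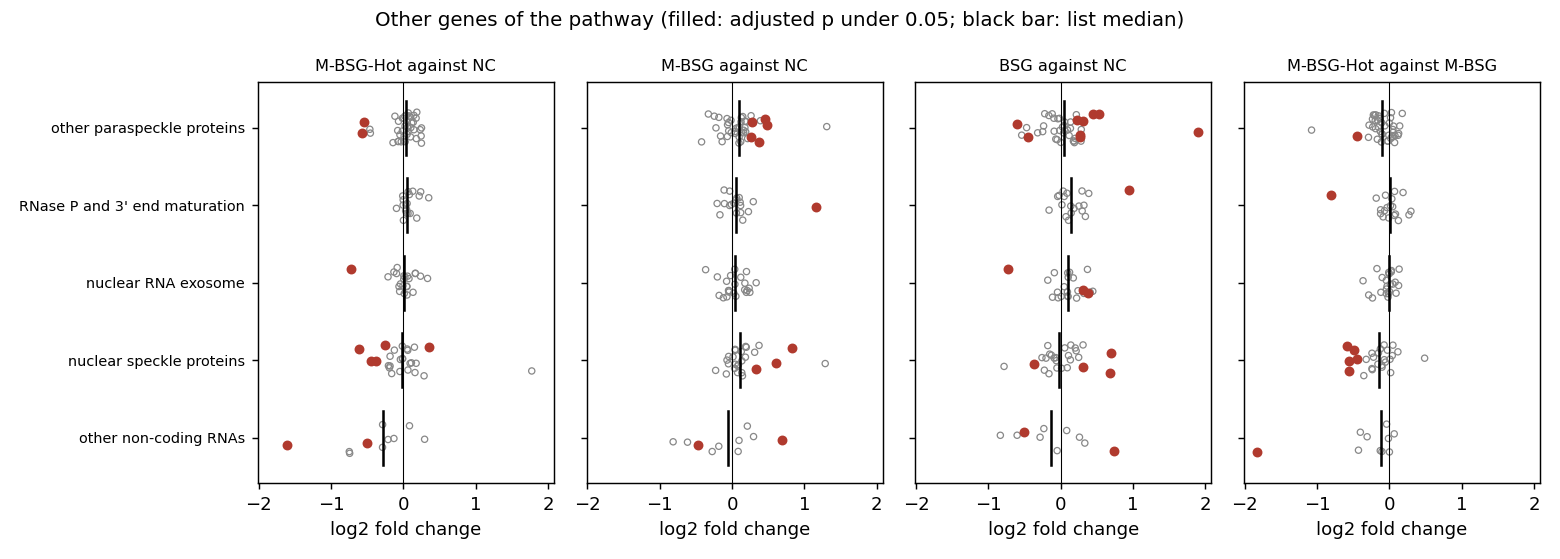
Log2 fold change (x axes) of the tested genes of 5 lists in 4 comparisons, with 1 circle per gene, filled where the edgeR adjusted p is under 0.05, and a bar at each list median. Filled circles of the speckle list lie on the lower side in M-BSG-Hot against M-BSG (5 of 26) and on the higher side in M-BSG against NC (3 of 26).

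Of 10 tested long non-coding RNAs other than NEAT1 and MALAT1, 0 were higher and 2 lower in M-BSG-Hot, and 1 was higher and 1 lower in both M-BSG and BSG against NC, where 4.91% of all genes passed in M-BSG-Hot, 6.35% in M-BSG and 11.7% in BSG. KCNQ1OT1, an imprinted nuclear RNA, stood at 3.40, 5.45 and 3.91 CPM in M-BSG-Hot, at 8.90, 16.9 and 19.4 CPM in M-BSG, at 7.64, 12.6 and 13.0 CPM in BSG, and at 9.98, 14.6 and 14.5 CPM in NC. M-BSG-Hot was below all other libraries. KCNQ1OT1 fell by 1.61 against NC (SE 0.290, edgeR adjusted p = 0.00449, and 0.102 and 0.0535 by limma on the 2 FPKM scales) and by 1.83 against M-BSG (SE 0.290, adjusted p = 0.0105), the second call being lost without M-BSG 3 (0.0724) or M-BSG-Hot 1 (0.0823) and in a fit of these 2 groups alone (0.0536), and by limma (0.196 and 0.114).

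OIP5-AS1, a cytoplasmic RNA, fell by 0.51 in M-BSG-Hot, by 0.47 in M-BSG and by 0.51 in BSG. Its call was lost without NC 2 (0.0600) or M-BSG-Hot 3 (0.0540) in M-BSG-Hot and without NC 2 (0.0706), NC 3 (0.0596) or M-BSG 1 (0.0575) in M-BSG. SNHG1, a host gene of small nucleolar RNAs, rose by 0.70 in M-BSG (edgeR adjusted p = 0.000626) and by 0.74 in BSG (adjusted p = 0.000286), and stood at 137 ± 14.5 CPM in M-BSG-Hot, against 112 ± 3.47 in NC, without passing (adjusted p = 0.126). The medians of the 10 were -0.29 in M-BSG-Hot, -0.05 in M-BSG and -0.14 in BSG. KCNQ1OT1 and OIP5-AS1 run antisense to coding genes, and without known strand their counts may hold reads of those genes.

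HSF1, the heat shock factor and a transcription factor reported to act on NEAT1, averaged 85.1 CPM in M-BSG-Hot, 75.1 in M-BSG, 78.6 in BSG and 75.7 in NC. Its log2 difference from NC was 0.17 in M-BSG-Hot, -0.01 in M-BSG and 0.05 in BSG, and it did not pass edgeR's test in these comparisons. In M-BSG-Hot against NC it had the highest log2 difference of the 7 listed regulators reported for NEAT1. The list median there was 0.04, and 0 of the 7 were higher and 0 lower by that test.

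Coding genes beside NEAT1 and MALAT1 on chromosome 11 had log2 differences from NC of -0.32 to 0.23, TIGD3 apart. FRMD8, the nearest coding gene upstream of NEAT1, stood at 32.7, 31.8 and 30.6 CPM in M-BSG-Hot, at 24.2, 27.7 and 30.3 CPM in M-BSG, at 26.8, 28.8 and 25.8 CPM in BSG, and at 27.9, 26.2 and 28.3 CPM in NC, with a log2 difference from NC of 0.21 in M-BSG-Hot (edgeR adjusted p = 0.257). FRMD8 did not pass the test in any of the 3 comparisons with NC. Of the 12 neighbours tested, edgeR called 1 higher and 0 lower in M-BSG-Hot, 1 higher and 0 lower in M-BSG, and 1 higher and 1 lower in BSG. Over all genes 4.91% passed in M-BSG-Hot, 6.35% in M-BSG and 11.7% in BSG. DESeq2 called 2 higher and 0 lower in M-BSG-Hot, and 1 higher and 1 lower both in M-BSG and in BSG.

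The neighbour called higher by edgeR was TIGD3, at or under 1 CPM everywhere. It stood at 0.272, 0.563 and 0.570 CPM in M-BSG-Hot, at 0.466, 0.853 and 0.764 CPM in M-BSG, at 0.951, 0.444 and 0.836 CPM in BSG, and at 0.199, 0.0260 and 0.0263 CPM in NC, where NC 2 and NC 3 lie under the limit that a count of 0 allows (3 counts, 0.0786 to 0.0871 CPM, counting error only), so no fold is given. Its call was lost in M-BSG-Hot (edgeR adjusted p = 0.0451) without NC 2 (0.205), NC 3 (0.198), M-BSG-Hot 2 (0.125) or M-BSG-Hot 3 (0.138), without the 3 libraries (0.0547), with the replicate block (0.0735) and by limma on log2(FPKM + 1) (0.109), and in M-BSG (adjusted p = 0.00954) without NC 2 (0.0608) or NC 3 (0.0594). CDC42EP2 fell by 0.32 in BSG (adjusted p = 0.0325), a call lost without NC 1, NC 2, NC 3, BSG 2 or BSG 3 (0.0586 to 0.120).

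**Figure D5:**
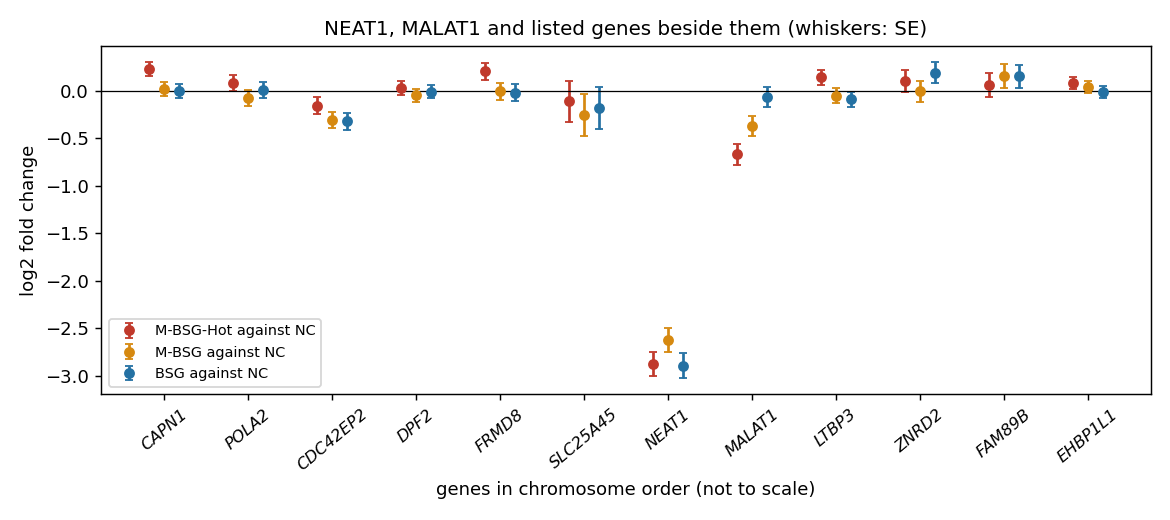
Log2 fold change against NC (y axis, whiskers for the SE) of NEAT1, MALAT1 and 10 of the 12 coding neighbours tested, not to scale. The order is that of the chromosome, except that SLC25A45 is drawn between NEAT1 and FRMD8, the nearest coding gene upstream of NEAT1. TIGD3, whose NC level is near the counting limit, is among those not drawn. NEAT1 lies between -2.90 and -2.62, and the coding genes between -0.32 and 0.23.

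In M-BSG against BSG none of the 138 genes tested over the 7 lists passed edgeR's test, where 0.13% of all genes did. Of the 138, 8 had an unadjusted p under 0.05 and DESeq2 called 1. In M-BSG-Hot against M-BSG 0 of the 138 were higher and 8 lower, where 0.0974% of all genes were higher and 0.597% lower. DESeq2 called 14 of the 138 there, all lower, and over all genes 47 higher and 229 lower.

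The genes whose course over the 12 libraries was nearest to that of NEAT1 included 3 with antisense or microRNA host names. Nearness was the root mean square difference of log2 CPM centred on the NC mean, over the 10886 genes with a mean of 5 CPM or more. It was 1.03 for SLC9A3-AS1, 1.07 for MIR222HG, 1.07 for MIR23AHG, 1.07 for LENG8 and 1.24 for GVQW3, so none lay close. LENG8, the most abundant of them, averaged 41.4 ± 5.81 CPM in M-BSG-Hot, 54.8 ± 1.43 in M-BSG, 38.2 ± 4.73 in BSG and 133 ± 3.03 in NC. MIR222HG, host of a microRNA pair, averaged 6.70 ± 0.465 CPM in M-BSG-Hot, 4.47 ± 1.21 in M-BSG, 4.97 ± 0.459 in BSG and 16.7 ± 1.89 in NC.

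Among the nearest to MALAT1 were STARD7-AS1 at 0.159, TIMM8A at 0.162, ZRANB2 at 0.167 and LYRM7 at 0.176. ZRANB2, a splicing factor gene, averaged 59.7 ± 9.49 CPM in M-BSG-Hot, 70.0 ± 6.85 in M-BSG, 71.6 ± 0.886 in BSG and 91.6 ± 3.16 in NC. Antisense and host RNAs among these names share their loci with other genes, so their counts are uncertain without known strand.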

How the data were processed

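For each of 12 libraries the authors deposited raw counts per gene symbol and FPKM, and the deposited FPKM matched counts scaled by gene length and library total in 100% of values above 0 (tolerance 1e-06). Per the labels' protocols, an RNeasy kit gave the RNA and a SMARTER mRNA-Seq kit the libraries. GRCm38 and mm10, names of a mouse assembly, stand in the submitters' processing notes, while the symbols are human. The build, aligner, counter and strand setting are otherwise not given in the sources used here, and promoter windows are RefSeq's own.

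Counts were tested with edgeR 4.0.16 in R 4.3.3: TMM factors of 0.951 to 1.05, filterByExpr with a minimum count of 10, and 1 mean per group fitted by quasi-likelihood over the 12 libraries, with Benjamini-Hochberg adjustment over 15407 genes. The SE comes from the log2 fold change and the F statistic (its size over the root of F). Alternatives used DESeq2 1.42.0 and limma 3.58.1 on log2(FPKM + 1) and log2(FPKM + 0.1). With 3 against 3 an exact permutation test of one gene cannot give a p under 0.1, so none is reported. Every replicate pair differed by more than sampling noise (chi-square of 3.37 to 60.9 per degree of freedom), and all were kept as separate samples. Total counts of 34434993 to 38163152 set the precision, and counting limits ignore duplicate reads.

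The members and the lists were chosen with earlier results of these data known. Named genes are the 7 members, up to 4 called genes of each list per comparison by smallest adjusted p, the chromosomal neighbours, the markers, and the 5 genes nearest in course to NEAT1 and to MALAT1. HSF1, and genes marked as named after their values were seen, stand outside this rule. Some genes under this rule are not reported here. The fitting code was tested on simulated data.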

Additional observations from a re-analysis of the deposited data

How the results depend on the processing

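Values of the 7 genes over the alternatives were set against the SD of a difference between 2 single libraries, 1 from each group. Of 595 values, 559 moved by less than that SD and 36 by more. This limit is wider than the SD between replicates within either group. The fall of NEAT1 was smaller by limma on log2(FPKM + 1), at -2.10 in M-BSG-Hot, -1.96 in M-BSG and -2.11 in BSG against NC, a scale that understates changes of low values, and in BSG it was -2.53 with the gene length trend removed. Leaving out 1 library at a time gave NEAT1 values of -2.97 to -2.80 in M-BSG-Hot, -2.71 to -2.53 in M-BSG and -3.03 to -2.80 in BSG.

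Counts of genes passing depended more on the setting. M-BSG-Hot against NC had 756, with 1161 by DESeq2, 1313 without BSG 1, M-BSG 1 and M-BSG-Hot 3, and 388 to 529 leaving out 1 library. M-BSG against NC had 979, with 1482 with the length trend removed, 1972 without those 3 libraries and 543 to 793 leaving out 1. BSG against NC had 1806, with 2810 by DESeq2 and 857 to 2331 leaving out 1. M-BSG-Hot against M-BSG had 107, with 276 by DESeq2, 10 in a fit of the 2 groups alone, 212 with the length trend removed, 275 without those 3 libraries and 25 to 85 leaving out 1. M-BSG against BSG had 20, with 50 by DESeq2, 38 with no count filter, 13 with the strict filter, 111 without those 3 libraries and 3 to 16 leaving out 1. The cause of these changes was not tested. Of the list genes called, 3 of 11 in M-BSG-Hot, 6 of 12 in M-BSG and 9 of 22 in BSG against NC, and 1 of 8 in M-BSG-Hot against M-BSG, were called in every single omission.

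Same-numbered libraries of different groups correlated by -0.287 to 0.408 in their deviations from the group means, and differently numbered ones by -0.320 to 0.289. The best match had the same number in 13 of 36 cases. Deviations from means of 3 libraries cannot show whether same-numbered libraries were paired or shared a batch. With the replicate number as a block 720 genes passed in M-BSG-Hot, 948 in M-BSG and 2100 in BSG against NC, 103 in M-BSG-Hot against M-BSG and 23 in M-BSG against BSG. In M-BSG against NC the block added a call of MALAT1 and made 6 paraspeckle protein calls against 5. It ended the M-BSG-Hot call of TIGD3 and made 5 exosome calls against 3, and 2 calls against 1 for RNase P and 3' end genes, in BSG against NC, and for non-coding RNAs 2 against 1 in M-BSG-Hot against M-BSG and 3 against 2 in M-BSG against NC. At this depth NEAT1 rested on at least 683 counts in a library, while genes under 1 CPM, such as TIGD3, rested on few.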
